A study of Homo sapiens with 6 samples.

Results

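Transcripts of the interferon receptors and of the kinase and transcription factors behind them were measured in a pair of sublines of the PC-3 prostate carcinoma cell line, PC-3/Mc and PC-3/S. The genes were IFNAR1, IFNAR2, IFNGR1, IFNGR2, IL10RB, JAK1, STAT2, IRF9 and IRF1, 9 in all. Every probe set that the array annotation assigned to 1 of these symbols alone was taken, which gave 20 probe sets of 8 genes out of 54613 probe sets and 19775 genes. STAT2 had no probe set named in this way and was not analysed here. The list was chosen by gene function with the measured differences between the lines already known, so that these values selected the genes and are described for them, not tested.

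RNA came from 3 arrays of PC-3/Mc and 3 of PC-3/S, all from subconfluent cultures of the human established line, with no treatment named for either line. No allele or agent separates the groups in the labels, which give only the name of the subline. Each subline is a single line, so a difference between them belongs to this pair of lines. The labels call the arrays biological replicates without saying how the cultures were separated. The errors below thus reflect spread between arrays of the same line only, part of which may be technical.

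Interferons act through paired receptor chains. The type I interferons (alpha, beta and others) bind IFNAR1 and IFNAR2, interferon gamma binds IFNGR1 with IFNGR2, and the type III interferons (lambda) bind IFNLR1 with IL10RB. The kinases JAK1, JAK2 and TYK2 are held on the inner ends of these chains and phosphorylate STAT factors. After type I or III interferon, STAT2 and IRF9 are parts of the complex ISGF3, which binds interferon-stimulated response elements (ISRE). After interferon gamma, STAT dimers bind gamma-activated sites (GAS), and IRF1 is a well-known target of that route and itself a transcription factor.

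All levels are log2 expression values as deposited. A difference is the mean of PC-3/Mc less that of PC-3/S on the same log2 scale. An error after ± is an SD of 3 arrays for a level and a moderated SE from limma for a difference. The variance in that SE is partly borrowed from all probe sets or genes fitted, so it is not the spread of the named probe set alone. The arrays read bulk RNA, so that fewer cells with a transcript and less of it per cell cannot be told apart. PC-3 cells lack CTNNA1, which read between 3.51 and 5.18 on its 5 probe sets, and readings up to 5.18 are treated as possibly background. A fold is called a lower bound where the dimmer line lay there. The floor rests on CTNNA1 alone, and the background of another probe set may be higher. Folds from dim readings above the floor may therefore be too small as well. Of the 20 probe sets, 3 read at or under that floor on every array, 1 for IFNGR1 and 2 for JAK1. Levels of different probe sets are not set against each other, since each probe set has its own response.

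Over all probe sets, arrays of a line correlated at 0.995 to 0.997, and arrays of different lines at 0.949 to 0.952. Epithelial keratins were bright in both lines (KRT18 at 12.48 ± 0.13 and 11.32 ± 0.01) and differed in both directions. KRT8 and KRT18 had differences of 1.03 and 1.16, while KRT19 ran the other way with -0.48 (means 11.28 against 11.76). The epithelial markers EPCAM and CDH1 were far higher in PC-3/Mc. EPCAM averaged 11.88 ± 0.19 there against 6.44 ± 0.22. CDH1 averaged 7.67 ± 0.19 against readings from 3.91 to 4.07, under the floor, on the PC-3/S arrays. Over the 5 epithelial markers the summed log2 level ran from 52.9 to 53.3 in PC-3/Mc and from 42.0 to 42.5 in PC-3/S, with 0 under the floor throughout. All 4 leukocyte markers measured, among them PTPRC and CD14, read under 5.18 on all arrays. Prostate luminal markers were dim, with KLK3 at 6.39 ± 0.33 and 6.73 ± 0.12. Genes used as markers of fibroblasts and endothelium differed in both directions. COL3A1 (6.21 against 4.28) and KDR (6.23 against 4.06) were higher in PC-3/S, while PECAM1 (7.18 against 6.58) and PDGFRB (5.08 against 4.73, both under the floor) were higher in PC-3/Mc. Over the 5 fibroblast markers the summed log2 level ran from 26.0 to 26.8 in PC-3/Mc and from 28.6 to 29.0 in PC-3/S, with 1 marker under the floor throughout. For the 5 endothelial markers it ran from 24.5 to 25.3 and from 26.0 to 26.9, with 2 under the floor throughout. The part of these in the results below was not tested.

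Both chains of the type I receptor, IL10RB, IRF9 and IRF1 were lower in PC-3/Mc, IFNGR1 was higher, and IFNGR2 and JAK1 lay close together in the lines. With limma across all probe sets and a threshold of 0.05 on the adjusted p, 11 of the 20 were called lower, 2 were called higher and 7 had no call, where 17.5% of all probe sets were lower and 18.4% higher. The values of the lines were fully apart for 15 of the 20, against 45.3% of all probe sets, whose arrays did not overlap. Nothing is read from these counts, because the list was made with this comparison known. Taking the brightest probe set of each gene, the 8 genes had a median difference of -1.18, where the median of all 19775 genes was -0.03.

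**Figure D1:**
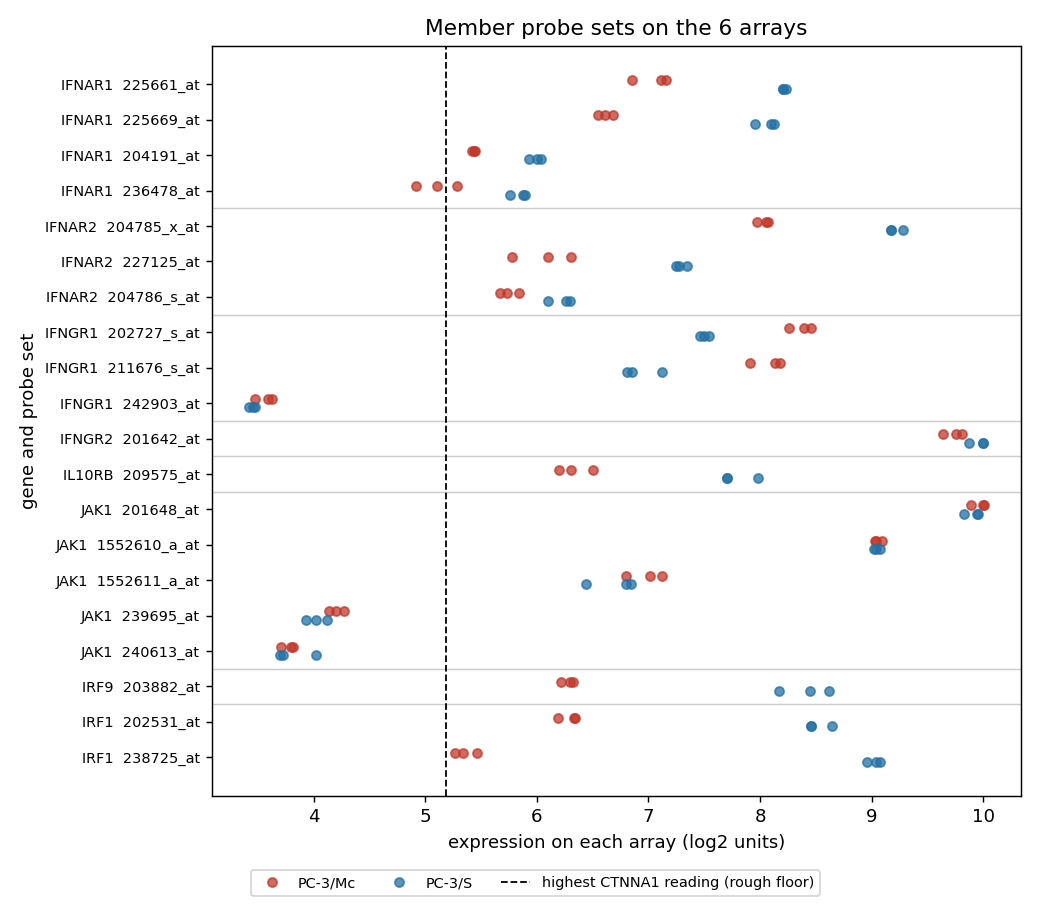
Expression of the 20 probe sets (rows) on each of the 6 arrays, in log2 units on the horizontal axis, with PC-3/Mc in red, PC-3/S in blue and the highest CTNNA1 reading (5.18) as a dashed line. The red and blue points are separate for every IFNAR1, IFNAR2, IL10RB, IRF9 and IRF1 probe set with blue to the right, and for the brighter IFNGR1 probe sets with red to the right.

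IFNAR1, the chain of the type I receptor that binds TYK2, was read by 4 probe sets. The brightest, 225661_at, read 7.16, 7.11 and 6.85 on the PC-3/Mc arrays and 8.20, 8.23 and 8.20 on the PC-3/S arrays. Every PC-3/S array was above every PC-3/Mc array, and the difference was -1.17 ± 0.10, or 2.25-fold. Probe set 225669_at read 6.68, 6.55 and 6.61 against 8.10, 8.13 and 7.95, a difference of -1.45 ± 0.09. The others were dimmer and differed less, 204191_at by -0.56 ± 0.08 and 236478_at by -0.74 ± 0.10. For 236478_at the PC-3/Mc mean of 5.10 was under the floor, and the lower bound was 1.55-fold. No array overlapped between the lines on any of the 4.

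IFNAR2, the high-affinity chain that carries the docking region for STAT factors, was read by 3 probe sets. The brightest, 204785_x_at, read 7.97, 8.05 and 8.07 in PC-3/Mc and 9.28, 9.18 and 9.18 in PC-3/S. The lines were again apart on every array, by -1.18 ± 0.08 or 2.26-fold. Its _x_at suffix marks probes that may also match other transcripts. Probe set 227125_at, which lacks that suffix, read 6.31, 6.10 and 5.78 against 7.35, 7.25 and 7.27, a difference of -1.23 ± 0.12. Probe set 204786_s_at differed by -0.47 ± 0.09. All 7 probe sets of the type I receptor were therefore lower in PC-3/Mc, by between -0.47 and -1.45.

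Of the interferon gamma receptor, the ligand-binding chain IFNGR1 was higher in PC-3/Mc. Probe set 202727_s_at read 8.40, 8.46 and 8.26 in PC-3/Mc and 7.54, 7.46 and 7.50 in PC-3/S, a difference of 0.87 ± 0.09 or 1.83-fold. Probe set 211676_s_at read 8.13, 8.18 and 7.91 against 7.12, 6.85 and 6.81, a difference of 1.14 ± 0.11. The PC-3/Mc arrays were above all PC-3/S arrays on both. Both carry the _s_at suffix of probes shared between transcripts, and the remaining probe set, 242903_at, read between 3.42 and 3.62 on all arrays, under the floor.

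IFNGR2, the signalling chain of the same receptor, was bright in both lines. Its probe set 201642_at read 9.75, 9.64 and 9.81 in PC-3/Mc and 10.00, 10.00 and 9.88 in PC-3/S. The lines did not overlap, but the gap was small, a difference of -0.22 ± 0.09. IFNGR1 was thus higher in PC-3/Mc, while the difference of its partner chain was small and below 0.

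IL10RB, the chain that receptors for interleukin-10, interleukin-22 and the lambda interferons share, was read by 1 probe set, 209575_at. It read 6.30, 6.50 and 6.20 in PC-3/Mc and 7.70, 7.70 and 7.98 in PC-3/S. All PC-3/S arrays were higher, by 2.75-fold (-1.46 ± 0.11). A difference as low as this or lower was read by 1.9% of all probe sets. This share, like those given below for IRF9 and IRF1, is a description, since the genes were chosen with the differences known.

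JAK1, the kinase that takes part in signalling from all 3 types of interferon receptor, read alike in the lines on its bright probe sets. Probe set 201648_at read 10.00, 10.01 and 9.89 in PC-3/Mc and 9.95, 9.83 and 9.96 in PC-3/S. The arrays overlapped, and the difference was 0.05 ± 0.09. For 1552610_a_at the difference was 0.01 ± 0.08. Probe set 1552611_a_at read 6.80, 7.12 and 7.01 against 6.44, 6.85 and 6.80, a difference of 0.28 ± 0.12, and its arrays overlapped too. The other JAK1 probe sets, 239695_at and 240613_at, were under the floor on every array.

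IRF9, the DNA-binding part of ISGF3, was read by probe set 203882_at at 6.32, 6.21 and 6.30 in PC-3/Mc and 8.45, 8.62 and 8.17 in PC-3/S. Every PC-3/S array was higher, by 4.40-fold (-2.14 ± 0.11), and the PC-3/S arrays were spread more widely (SD 0.22) than those of PC-3/Mc (SD 0.06). Of all probe sets, 0.8% had a difference as low or lower.

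IRF1, which binds ISRE-like sequences in genes of antigen processing and antiviral defence, had the largest difference of the 8 genes. Probe set 202531_at read 6.34, 6.18 and 6.33 in PC-3/Mc and 8.65, 8.46 and 8.46 in PC-3/S, 4.72-fold lower (-2.24 ± 0.09). Probe set 238725_at read 5.27, 5.34 and 5.47 against 9.04, 8.96 and 9.08, 12.7-fold lower (-3.67 ± 0.09). The lines were far apart on both, and the probe sets gave different sizes. In PC-3/Mc 238725_at was close to the floor, while 202531_at averaged 6.28, above it. Differences as low or lower were read by 0.7% and 0.2% of all probe sets.

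**Figure D2:**
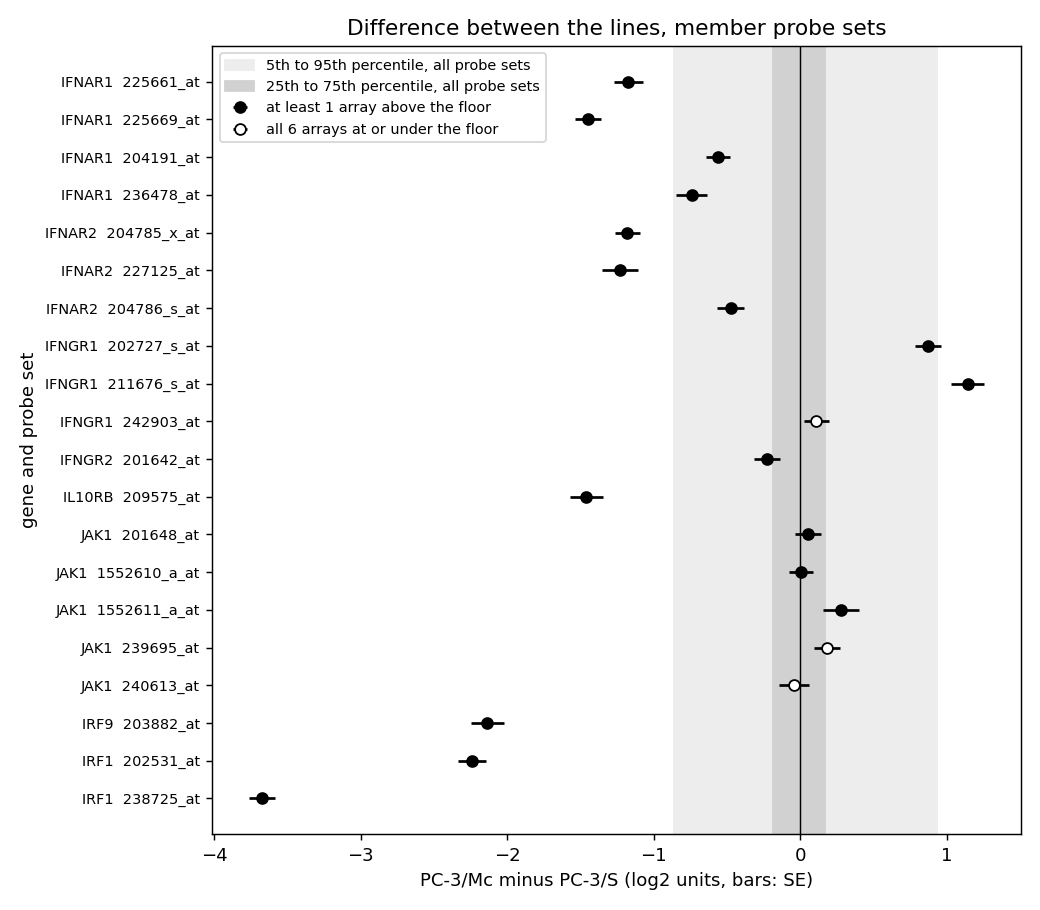
Difference between the lines, PC-3/Mc minus PC-3/S in log2 units with bars of 1 SE, for the 20 probe sets (rows), over bands that hold the central range of all 54613 probe sets (-0.19 to 0.17 for the 25th to 75th percentile, -0.86 to 0.93 for the 5th to 95th). All probe sets of IRF1, IRF9 and IL10RB and 2 each of IFNAR1 and IFNAR2 lie left of the wider band, 1 of the IFNGR1 probe sets lies right of it, and the JAK1 points lie near 0, 3 open symbols marking probe sets under the floor on all arrays.

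Genes whose 6 array values followed those of IRF1 (202531_at) most closely were found by the Euclidean distance of values centred per gene, among 9887 genes at or above the median level. They were PLPP3 (distance 0.11, difference -2.19), TCEAL3 (0.14, -2.26), GLT8D2 (0.16, -2.25), MT1HL1 (0.16, -2.26) and ARID5B (0.17, -2.17), which differed by -0.83 as the mean of its probe sets. With 2 groups of arrays this likeness over 6 arrays is mostly a like difference between the lines.

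The promoters of IRF1, IRF9 and IL10RB are shown because they were the windows of these genes that held the GAS pattern TTCNNNGAA, to which STAT dimers can bind. RefSeq windows of 250 bases before to 50 bases after a transcription start (GRCh38.p14) were at hand for 8 of the 9 genes, 12 windows in all, with several starts for some genes. IFNAR2 had none. The pattern reads the same on both strands and was in 3 of the 12 windows, against 7.66% of all 35116 windows of this length. The pattern GAAANNGAA is a shortened and so less specific form of the ISRE core to which ISGF3 and IRFs can bind. Searched on both strands, it was in 0 of the 12 and in 8.11% of all windows. A match is a run of letters and not a measured site, and the arrays do not show binding. The sequences are 5′ to 3′ on the gene's strand, with the GAS pattern in capitals, and positions count the pattern's first base from the start site at 1, with no 0:
IRF1, chr5:132490724-132491023, minus strand, pattern from -124: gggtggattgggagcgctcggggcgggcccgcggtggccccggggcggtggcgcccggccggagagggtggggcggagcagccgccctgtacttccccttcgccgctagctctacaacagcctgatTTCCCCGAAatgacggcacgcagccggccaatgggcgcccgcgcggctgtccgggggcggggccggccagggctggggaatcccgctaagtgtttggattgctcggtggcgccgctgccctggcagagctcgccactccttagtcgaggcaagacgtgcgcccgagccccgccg
IRF9, chr14:24161015-24161314, plus strand, pattern from -63: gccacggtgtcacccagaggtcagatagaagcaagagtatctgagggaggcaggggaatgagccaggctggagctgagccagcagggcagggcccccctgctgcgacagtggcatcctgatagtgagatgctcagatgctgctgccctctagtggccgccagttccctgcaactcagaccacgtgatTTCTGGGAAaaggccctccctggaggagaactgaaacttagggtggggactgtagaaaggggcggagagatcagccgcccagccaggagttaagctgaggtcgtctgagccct
IL10RB, chr21:33266117-33266416, plus strand, pattern from 12: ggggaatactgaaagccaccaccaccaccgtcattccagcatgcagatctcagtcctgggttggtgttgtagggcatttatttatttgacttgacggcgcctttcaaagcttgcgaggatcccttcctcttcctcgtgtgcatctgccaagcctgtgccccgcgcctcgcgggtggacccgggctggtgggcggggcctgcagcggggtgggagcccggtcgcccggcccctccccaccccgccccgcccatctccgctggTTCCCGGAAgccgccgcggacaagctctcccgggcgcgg
The capitals of the 3 windows differ in the bases between the fixed ends and in place, upstream of the start for IRF1 and IRF9 and just after it for IL10RB. The IRF1 and IL10RB windows were rich in CpG pairs (36 and 25), where the median of all windows was 14, and the IRF9 window had 7. The windows of IFNAR1, IFNGR1, IFNGR2, JAK1 and STAT2 held neither pattern.

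IFNAR2, IL10RB, IFNAR1 and IFNGR2 follow one another on chromosome 21 in this order in the RefSeq gene table, with only the divergent transcript IL10RB-DT among the measured genes between them. The other members lie apart, IFNGR1 on chromosome 6, JAK1 on 1, STAT2 on 12, IRF9 on 14 and IRF1 on 5. Along the run the differences were -1.18, -1.46, -1.17 and -0.22. IL10RB-DT was under the floor on all arrays, as were OLIG2, OLIG1 and LOC101928107 on the IFNAR2 side. On the IFNGR2 side, TMEM50B, which encodes a membrane protein, averaged 8.02 ± 0.02 on the PC-3/Mc arrays and 10.79 ± 0.08 on the others. This difference of -2.76 ± 0.08 (adjusted p = 5.9e-10) was larger than that of any receptor gene of the run. As the mean of all TMEM50B probe sets the difference was -1.87 (adjusted p = 4.8e-09). DNAJC28 was under the floor on all arrays. GART, an enzyme of purine synthesis, was higher in PC-3/Mc by 0.35 ± 0.08 (adjusted p = 0.0041), a call lost with the mean of all its probe sets (0.08, adjusted p = 0.41). The lower values thus covered part of the run and its next neighbour, and neither IFNGR2 nor GART shared their size. DNA copy number was not measured here.

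**Figure D3:**
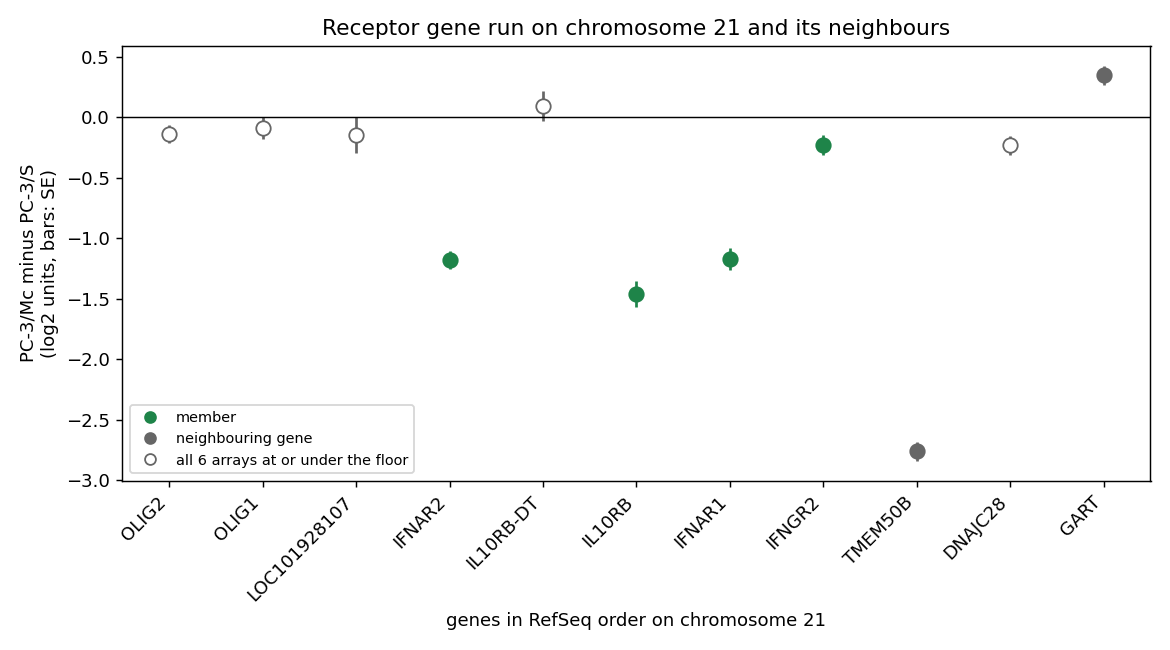
Difference between the lines (PC-3/Mc minus PC-3/S, log2 units, bars of 1 SE) for the brightest probe set of each measured gene in RefSeq order on chromosome 21, members in green, neighbours in grey and genes under the floor on all 6 arrays as open symbols. IFNAR2, IL10RB and IFNAR1 lie between -1.17 and -1.46, IFNGR2 at -0.22, TMEM50B at -2.76 and GART at 0.35.

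Other genes of the route were counted on their brightest probe sets with limma over all genes. The background was 23.2% of genes called higher and 22.7% called lower. The lists, like the members, were chosen with earlier results of these data known. Their counts and adjusted p-values below are therefore descriptions and not independent support. Of the 20 interferon ligand genes listed, 18 were measured. Of these 0 were higher (0 at an unadjusted p under 0.05), 2 lower and 16 not called, with a median of -0.07. The level of 16 of them stayed under the floor on every array. Interferon beta (IFNB1) was at 3.65 ± 0.16 and 3.97 ± 0.10 and interferon gamma (IFNG) at 4.02 in both, so no fold is given. IFNE, the epithelial interferon epsilon, was at 4.51 ± 0.24 and 5.12 ± 0.11. IFNB1 and IFNE were the 2 called lower (adjusted p = 0.026 and 0.0014), both means of each under the floor, and the IFNB1 call was lost in 4 of the alternatives, among them each fit that left out PC-3/Mc replicate 1 (adjusted p = 0.095), PC-3/S replicate 1 (0.11) or PC-3/S replicate 2 (0.061).

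The other class II cytokine receptors, the family of IFNAR1 and IL10RB, were mostly higher in PC-3/Mc, with 5 of 7 called higher, 0 called lower (0 at an unadjusted p under 0.05) and a median of 0.49. IFNLR1, the partner of IL10RB in the lambda receptor, was at 6.68 ± 0.08 and 5.50 ± 0.08, a difference of 1.19 ± 0.08 (adjusted p = 6.5e-07). Its other probe set read 5.92 and 6.03 and differed by -0.11, without a call, so that the IFNLR1 probe sets disagree. The others that were higher, chosen after their values were seen, were IL20RA (1.31), F3 (0.77), IL20RB (0.49) and IL22RA1 (0.34), and of these IL20RA and IL22RA1 were under the floor in PC-3/S and IL20RB in both lines.

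Among 8 other JAK kinase and STAT genes, 2 were higher, 2 lower and 4 not called, with a median of -0.18. JAK2, the kinase paired with IFNGR2, was at 7.04 ± 0.06 and 6.36 ± 0.07, higher in PC-3/Mc by 0.68 ± 0.08 (adjusted p = 3.1e-05), or by 0.43 as the mean of its probe sets. TYK2, the kinase paired with IFNAR1 and IL10RB, was at 8.24 ± 0.12 and 9.10 ± 0.04, a difference of -0.86 ± 0.09 (adjusted p = 8.8e-06). Also called were STAT6 (0.91) and STAT3 (-0.26), both picked after their values were seen. STAT6 was at 9.23 and 8.32. STAT3 was at 5.38 and 5.64 on its brightest probe set, so close to the floor of 5.18 that both may be background. Nothing is read from the STAT3 call.

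Of 6 other IRF genes, 1 was higher, 3 lower and 2 not called, with a median of -0.18. IRF7, which amplifies type I interferon production, was at 6.80 ± 0.20 and 8.49 ± 0.04, 3.23-fold lower (adjusted p = 1.9e-07). IRF3, its constitutive counterpart, differed by -0.27 ± 0.08 (adjusted p = 0.024), a call lost in 5 alternatives, among them when PC-3/Mc replicate 2 (adjusted p = 0.079), PC-3/S replicate 2 (0.10) or PC-3/S replicate 3 (0.053) was left out. IRF2, an antagonist of IRF1, was higher by 0.52 ± 0.10 at the dim levels of 5.88 and 5.36 (adjusted p = 0.0011). IRF5 (-0.41), chosen after its value was seen, was the other lower one.

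Of 19 negative regulators, 2 were higher, 10 lower and 7 without a call, and their median was -0.23. SOCS2, a suppressor of cytokine and growth hormone signalling, was at 6.54 ± 0.17 and 11.34 ± 0.07, 27.8-fold lower in PC-3/Mc (adjusted p = 6.1e-11). SOCS3 was lower by a difference of -0.87 ± 0.11 (adjusted p = 7.8e-05), but its other probe sets differed by -0.36, -0.04 and 0.15, the last under the floor, and the mean of all was -0.28 (adjusted p = 0.0041). SOCS1, a potent feedback inhibitor of the gamma route, had a mean signal of 5.82 ± 0.18 across the PC-3/Mc arrays, and its difference of -0.18 ± 0.11 was not called (adjusted p = 0.20). USP18, which binds IFNAR2 and dampens type I signalling, differed by -0.25 ± 0.07 (adjusted p = 0.019), a call lost in 4 alternatives, among them when arrays were centred (adjusted p = 0.081) and when PC-3/S replicate 1 (0.063) or 2 (0.073) was left out. PTPN2 (0.76) and PTPN6 (0.60), phosphatases chosen after their values were seen, were the higher ones.

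Of 12 genes of nucleic acid sensing, which leads to interferon production, 4 were higher, 6 lower and 2 not called, with a median of -0.26. RIGI, a sensor of viral RNA, was at 5.53 ± 0.16 and 7.32 ± 0.10, 3.46-fold lower (adjusted p = 1.1e-07), and IFIH1, another one, was at least 2.60-fold lower. CGAS, the cytosolic DNA sensor, was higher by 1.06 ± 0.10 (adjusted p = 4.5e-06), but its 2 other probe sets differed by 0.24 and 0.14 without a call. TBK1 (0.77), IFI16 (0.64) and TRIM25 (0.41), chosen after their values were seen, were the other higher ones.

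Genes known as targets of ISGF3 were lower in 20 of 25, higher in 2 and not called in 3, with a median of -1.77. As for the other lists, this count is a description, since the list was chosen with earlier results known. MX1 was at 4.37 ± 0.20 and 8.18 ± 0.29, at least 8.05-fold lower, IFITM1 at least 10.4-fold, IFIT2 9.45-fold and UBE2L6 8.96-fold (adjusted p of 1.1e-08 or smaller for each). In 8 of the 20 the PC-3/Mc mean was at or under the floor. Against this direction ran OAS1 (0.54) and HERC5 (0.37), chosen after their values were seen.

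Of 20 genes known as targets of the interferon gamma route, 8 were lower, 2 higher and 10 not called, with a median of -0.10. PSMB9, an immunoproteasome subunit, was at 3.98 ± 0.21 and 7.72 ± 0.09, at least 5.82-fold lower (adjusted p = 8e-10). GBP1, an interferon-induced GTPase, was at least 3.90-fold lower, the checkpoint ligand gene CD274 at least 4.26-fold and the peptide transporter gene TAP1 5.67-fold. Of the 10 not called, 7 had means at or under the floor in both lines, the chemokine genes CXCL9, CXCL10 and CXCL11 among them. WARS1, the tryptophanyl-tRNA synthetase, was higher by 1.32 ± 0.08 (adjusted p = 1.9e-07), as was PSMB10 (0.70), chosen after its value was seen. The difference between the 2 target lists was not tested.

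**Figure D4:**
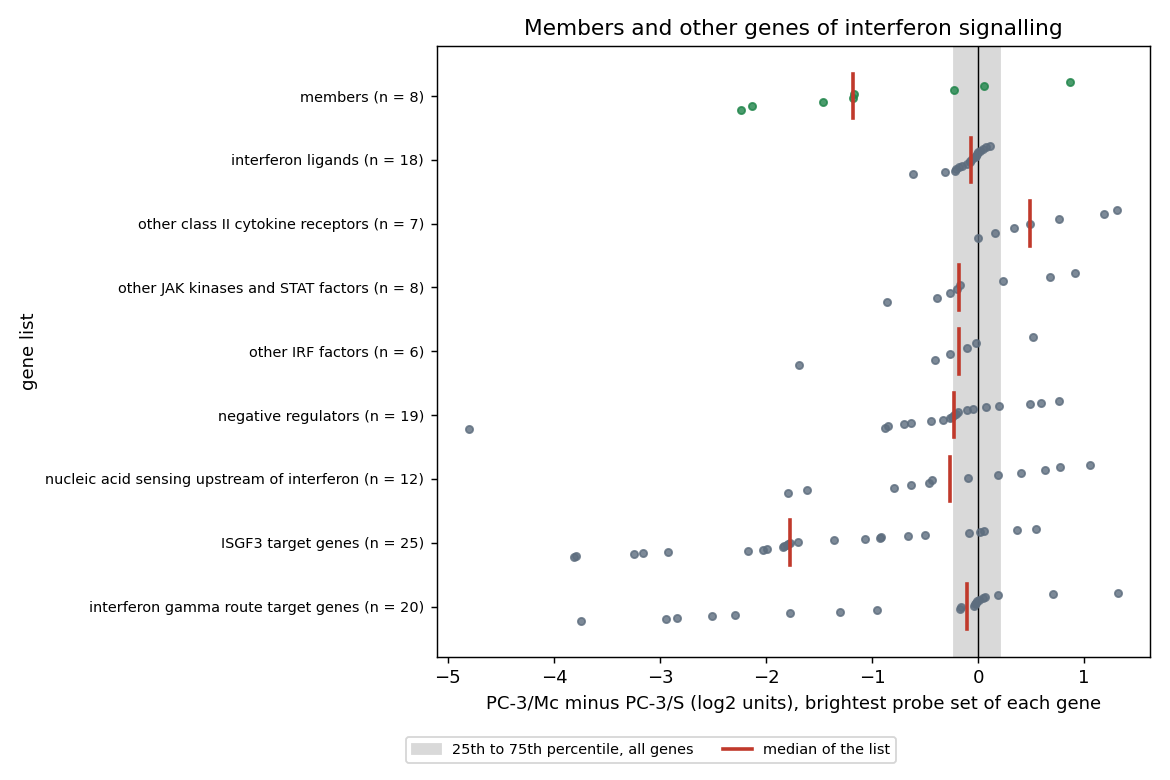
Difference between the lines (PC-3/Mc minus PC-3/S, log2 units) of the brightest probe set of each gene, 1 point a gene, for the 8 measured members (green) and the 8 lists of other interferon signalling genes, with the median of each in red and the central range of all genes (-0.23 to 0.21, 25th to 75th percentile) in grey. The medians of the members (-1.18) and of the ISGF3 targets (-1.77) lie far left of the grey band, those of the nucleic acid sensing genes (-0.26) and the negative regulators (-0.23) lie just past its left edge, that of the other class II cytokine receptors (0.49) lies right of it, and SOCS2 is the point farthest left.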

How the data were processed

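The authors deposited log2 expression values for 54675 probe sets on 6 one-colour arrays; the scale was read from the values, which reach 14.45, and the software, background correction and scaling were not given in the sources used here. Scaling between arrays makes every difference relative to the other probe sets. The 62 control probe sets were left out. The platform annotation gave 41091 probe sets a single symbol. Differences were fitted with limma 3.58.1 in R 4.3.3 (lmFit, eBayes, two-sided, no covariates), once over 54613 probe sets and once over 19775 genes, each by its brightest probe set, with p-values adjusted by Benjamini-Hochberg over all of them. The fit was also run on simulated data with independent noise, as a check of the code only, and no result here rests on that run.

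Named were all members, a set of fixed pathway genes (1 of them is not reported here), up to 4 called genes per list and direction with at least a 2-fold difference and a level at or above the median of all genes (5.98), 3 measured neighbours on each side of the chromosome 21 run, and the 5 genes most like the member that differed most. The members and lists were chosen with earlier results of these data known. The 8 lists held 119 entries, of which 4 had no probe set and 1 gene stood in 2 lists. Alternatives were other scaling, a filter on dim features, a variance trend, a replicate block, other probe set choices and leaving out each array.

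The labels share replicate numbers between the lines, but deviations from the line means correlated at -0.006, -0.214 and -0.309 for same-numbered arrays, so the numbers were not used as pairs. Precision is limited by having 3 arrays a line (median SE per gene 0.092).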

Additional observations from a re-analysis of the deposited data

How the results depend on the processing

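Across 12 alternatives for the member probe sets and 13 for the lists, counts stayed within 1.5 times the value reported with 1 exception. When probe sets with an _x_at or _s_at suffix were left out, 0 of the remaining 16 member probe sets were called higher in PC-3/Mc in limma (1 at an unadjusted p under 0.05), since both bright IFNGR1 probe sets end in _s_at; IFNGR1 was then left with a probe set under the floor (0.11). The number of lower member probe sets ranged from 9 to 12, of other pathway genes from 10 to 16 higher and from 17 to 27 lower, and of target genes from 4 to 5 higher and from 21 to 29 lower. With the replicate number as a replicate block these were 2 and 11 member probe sets, 14 and 18 other pathway genes and 4 and 28 target genes, higher and lower. The block moved no count by over 1.5 times, lost the calls of IFNB1, IRF3, USP18 and DNAJC28 (adjusted p = 0.069, 0.071, 0.053 and 0.079) and no other named call outside the members, and no array correlated best with its own number.

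Differences of the member genes ranged from -1.24 to -0.98 for IFNAR1, from -1.27 to -0.96 for IFNAR2 and from -1.54 to -1.36 for IL10RB. They ranged from -2.26 to -2.03 for IRF9, from -2.96 to -2.18 for IRF1 and from 0.11 to 0.93 for IFNGR1. For IFNGR2 the range was from -0.32 to -0.18, and for JAK1 from -0.05 to 0.10. The fit over genes called IFNGR2 lower, a call lost in 7 alternatives, and IFNGR1 higher, a call lost in 1. Of the differences of other named genes under an alternative, 443 kept their side of the threshold, 24 lost a call and 0 called ones reversed. CGAS lost its call without _x_at and _s_at probe sets (0.14, adjusted p = 0.36), and DNAJC28 in 9 alternatives, at levels under the floor.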
